A study of Mus musculus with 9 samples.

Results

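The genes described here encode the proteases, membrane glycoproteins and proton pump of the lysosome. The rule that picks them reads gene symbols and no measured value: all cathepsins (Cts followed by 1 letter), the LAMP and LAPTM membrane protein families, the subunits of the vacuolar proton pump (V-ATPase, symbols Atp6v0 and Atp6v1) and its accessory proteins Atp6ap1 and Atp6ap2. The rule found 49 of the 55401 genes in the table of counts. They comprise 14 cysteine, 2 aspartic and 2 serine cathepsins, 4 LAMP and 3 LAPTM genes, 9 subunit genes of the membrane part of the pump (V0), 13 of its cytosolic part (V1) and the 2 accessory genes. Of these 49 genes, 37 were among the 15717 genes that passed edgeR's filter on low counts and were tested. The other 12 had too few counts to test.

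Whole-liver RNA was sequenced from female mice of 3 groups with 3 livers each. All mice carried wild-type genomes, were obtained at 6 weeks of age and were FVB/N according to the protocols, although a strain field of the labels names C57BL/6. Healthy livers came from mice without any treatment. For the other groups, hepatocellular carcinoma (HCC) was induced by hydrodynamic tail vein injection, which drives plasmids into hepatocytes, of sleeping beauty transposon vectors for myr-AKT (from an EF1α promoter) and Nras-v12 (from a Caggs promoter), together with the transposase. The protocol of the labels also lists a vector for N90-β-catenin, which the study describes for a separate model. At week 1 after the oncogenes, these mice received adeno-associated virus of serotype AAV8 that carried miR-22 behind a CMV promoter (miR-22-treated HCC) or was blank (untreated HCC), and livers were collected at week 5, 4 weeks after the virus. Both HCC groups therefore share the oncogenes, the injection and the virus capsid, whereas the healthy livers received none of these and no collection time is given for them. Each sample is bulk tissue with tumor and non-tumor cells together, so fewer cells of a type and less RNA per cell cannot be told apart. The labels number the livers without saying that each number is a separate animal, and p-values measure the spread between these livers.

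Lysosomes are acidic organelles that break down material delivered by endocytosis and autophagy. The V-ATPase sets their acid pH: its V1 part hydrolyzes ATP in the cytosol and turns a rotor that moves protons through the V0 part in the membrane. Cathepsins are the proteases that work in this acid, LAMP1 and LAMP2 are the abundant heavily glycosylated proteins that line the lysosomal membrane, and LAPTM proteins are small membrane proteins that take part in sorting and signaling there. In liver, hepatocytes and the resident macrophages (Kupffer cells) both hold many lysosomes. Several subunits and cathepsins exist as paralogs, of which some serve all cells and others particular cells such as osteoclasts or antigen-presenting cells.

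miR-22 acts by pairing of its seed with 3′ untranslated regions (3′ UTRs), so the delivered sequence and the members with a match are shown first. The mature miR-22-3p is given 5′ to 3′ as in RefSeq, with the seed, bases 2 to 8, in capitals (GRCm38.p6, chr11:75463772-75463793, plus strand). Below it stand the 29 bases around the match GGCAGCT, in capitals, in the GENCODE vM39 3′ UTRs of the members that hold it.
miR-22-3p: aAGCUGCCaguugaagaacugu
Atp6v0a2: ccgagcctgccGGCAGCTgggtaagctgg
Atp6v0c: acacatgcacgGGCAGCTgcccctcagta
Ctsa: tgatgggctcaGGCAGCTgcagcagaggg
Ctsd: atcctgggctaGGCAGCTgggagccaaag
Laptm4b: gctcgttccctGGCAGCTgcggtgcttca

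These 5 were 13.5% of the 37 tested members with a 3′ UTR, against 16.9% of the 13559 tested genes with one. The members' 3′ UTRs were shorter, with a median of 992 bases against 1339. A match is a description of letters and not a shown target site. The mature miRNA itself was not analysed here.

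Library totals ran from 16664659 to 23908392 counts. The 49 genes held between 0.399% and 0.403% of all counts in a healthy liver, between 0.482% and 0.511% in untreated HCC, and between 0.471% and 0.492% after miR-22. Counts were scaled with edgeR's TMM method, and the values below are TMM-normalized counts unless another scale is named. Scaling by TMM used 0.8655 at the lowest and 0.8721 at the highest for a healthy library. The range was 1.121 to 1.223 for untreated HCC and 0.942 to 1.029 after miR-22. A larger factor lowers the normalized counts of a library, and the shares of all counts above leave it out. These shares can therefore rise where normalized levels fall, and differences in level given below depend on this scaling. Akt1, whose symbol is shared by the injected oncogene, lay between 2002 and 2105 in healthy livers, 22700 and 32450 in untreated HCC and 13030 and 21420 in miR-22-treated HCC. The hepatocyte markers of the labelled tissue were present in every library, with a summed level of at least 991900.

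Marker transcripts of several cell types also differed between the groups, and some of their values stand beside the lysosomal genes below. The part of these cells in the values of any member was not tested. The summed level of 15 macrophage markers ranged over 7983 to 8420 (healthy), 72940 to 130000 (untreated HCC) and 40810 to 61330 (miR-22-treated HCC). In the HCC livers most of that sum was Spp1, which is also on the cholangiocyte list. Without Spp1 the sums were 7504 to 7801, 10110 to 12120 and 10070 to 11480, and without Cd14 as well they were 7423 to 7718, 7284 to 7843 and 7872 to 9702, both choices made after the values were seen. The summed level without these genes thus overlapped between healthy and untreated HCC livers, although 6 of the 13 remaining markers were called higher and 3 lower. Over all tested genes, 22.7% were called higher and 18.1% lower in untreated HCC against healthy livers. The marker counts were not tested against these shares. In this comparison, 8 of 15 macrophage markers were called higher and 3 lower, and 1 of 6 Kupffer cell markers (Timd4) was called lower. All 5 tested neutrophil markers were called higher, with sums of 36.7 to 90.3 (healthy), 355 to 473 (untreated HCC) and 354 to 539 (treated HCC). The neutrophil markers Camp, Elane, Ly6g and Ngp were at 0 in all healthy livers. Of 10 hepatocyte markers, 10 were called lower in untreated HCC, with sums of 2589000 to 2671000 (healthy), 991900 to 1266000 (untreated HCC) and 1535000 to 1925000 (treated HCC). Of the 10 stellate cell and fibroblast markers 6 were called higher and 2 lower, and of 7 cholangiocyte markers 6 higher. Of 8 endothelial markers 4 were called lower, and of 8 dendritic cell markers 3 higher and 1 lower. Of the 9 tested T and NK cell and of the 5 tested B and plasma cell markers, 1 was called higher and 1 lower each. The single mast cell marker that could be tested was not called. With miR-22 against untreated HCC, 8.32% of all tested genes were called higher and 5.47% lower. Here 7 of 10 hepatocyte markers were called higher, 5 of 7 cholangiocyte markers lower, and 2 of 15 macrophage markers higher and 2 lower. Of the others, 2 stellate markers were called higher and 2 lower, 2 endothelial, 1 dendritic and 1 T and NK marker were called higher, and no Kupffer, neutrophil, mast or B cell marker was called.

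Untreated HCC was first compared with healthy livers, to see which lysosomal genes differ when RAS/AKT tumors grow. In all, 10 members were called at a Benjamini-Hochberg adjusted p under 0.05 with a fold change over 1.5, by edgeR's quasi-likelihood test. The 6 that rose were the V0 subunit genes Atp6v0e2 and Atp6v0e, the cathepsins Ctsk and Ctss, and the membrane protein genes Laptm5 and Laptm4b. The 4 that fell were the V0 subunit gene Atp6v0d2, the cathepsins Ctsh and Ctsc, and Lamp2. The other 27 tested members, with all V1 subunits, the aspartic and serine cathepsins and Lamp1 among them, were not called. The 10 are 27% of the 37 tested members, against 40.8% of all tested genes called in this comparison, of which 22.7% were called higher and 18.1% lower. The median size of the log2 fold change, without its sign, was 0.21 over the members and 0.53 over all tested genes. Livers of the groups did not overlap for 26 of 37 members (70.3%), against 65.3% of all tested genes. By the adjusted p alone 16 of the 37 passed, against 56.2% of all tested genes. The plot of fold changes shows the members grouped by protein type, with most V1 subunits close to the zero line.

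**Figure D1:**
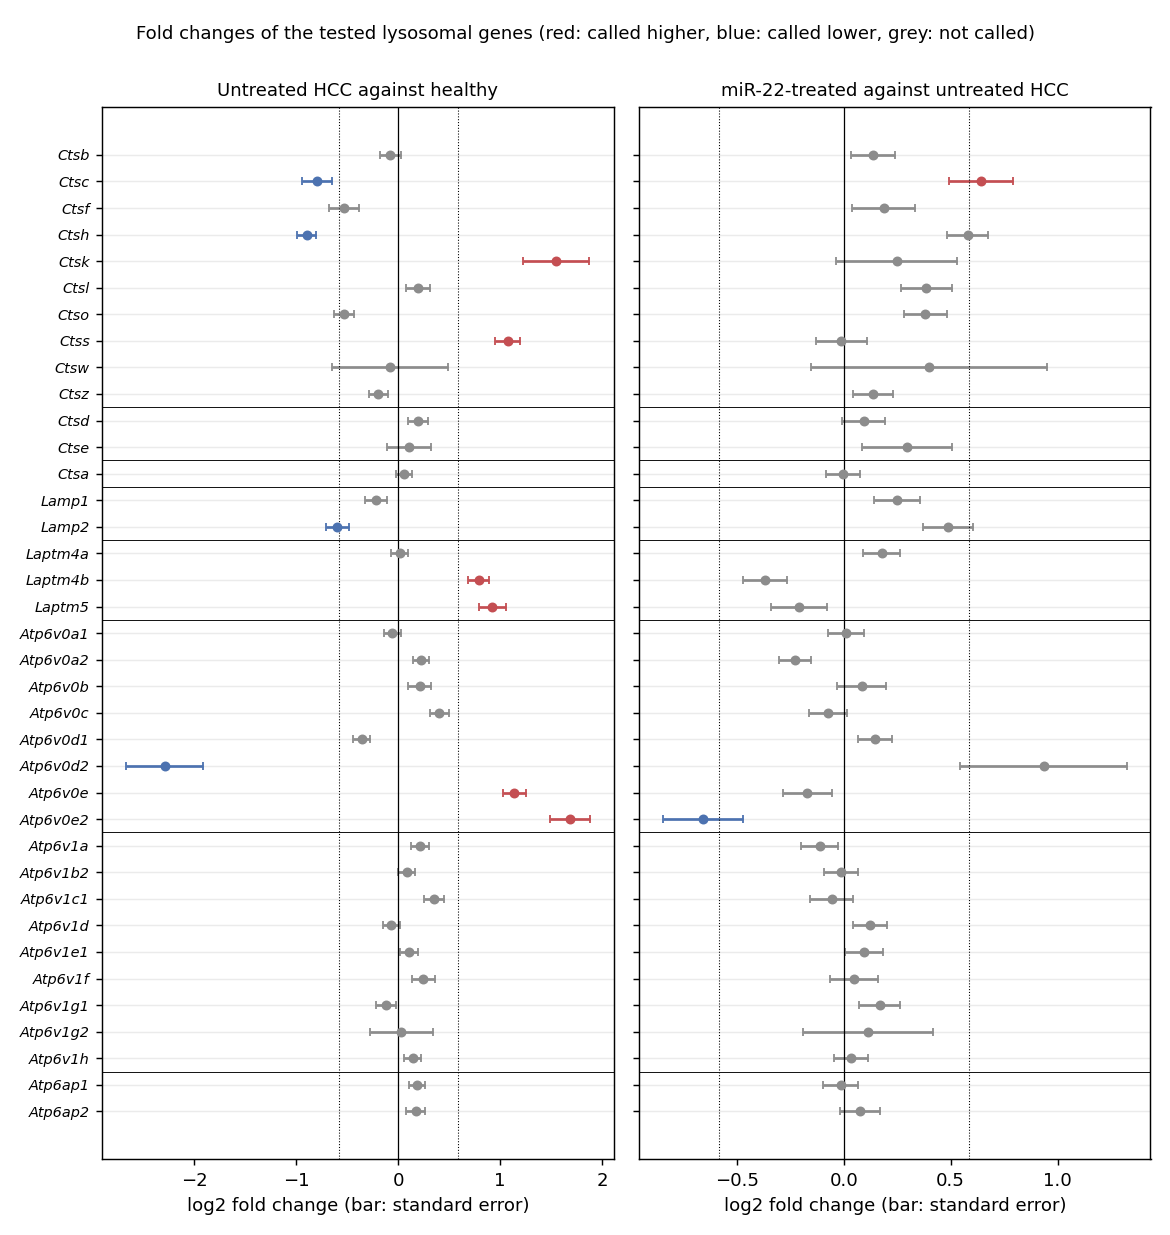
Log2 fold changes (points, horizontal axis) with standard errors (bars) of the 37 tested members, grouped by protein type on the vertical axis, for untreated HCC against healthy livers on the left and miR-22-treated against untreated HCC on the right (red, called higher; blue, called lower; grey, not called; dotted lines, a fold of 1.5). On the left 10 genes are colored and on the right Ctsc and Atp6v0e2, and the 9 V1 subunits lie between −0.12 and 0.35 on the left.

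Per kilobase of the canonical GENCODE vM39 transcript, which allows genes to be compared, the most abundant members in healthy livers were Lamp2 and Lamp1, at 7430 ± 318 and 5560 ± 35.7 TMM-normalized counts per kb (SD, n = 3). Ctsh at 3180 ± 88.1 followed, before the cathepsins Ctsb and Ctsd. In untreated HCC, Lamp2 at 4910 ± 241 and Lamp1 at 4770 ± 483 counts per kb overlapped, so their order could not be told from 3 livers. The plot of levels per kb shows that Ctsh lay below Ctsb and Ctsd in every untreated HCC liver.

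**Figure D2:**
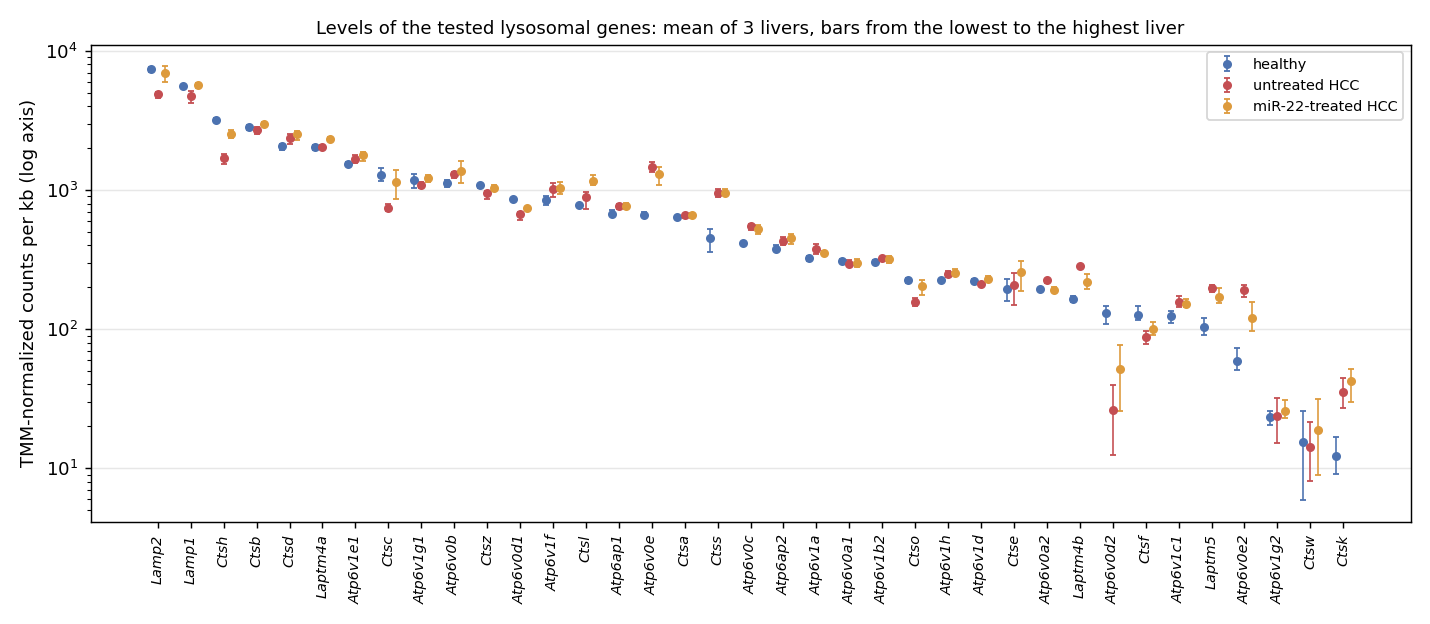
TMM-normalized counts per kb on a log axis for each tested member, ordered by its mean in healthy livers, with the mean of 3 livers (points) and the lowest and highest liver (bars) in each group. Lamp2 and Lamp1 are the most abundant in healthy livers, and Ctsw and Ctsk are the least abundant of the tested members there.

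Ctsh encodes cathepsin H, an aminopeptidase of the cysteine protease family that is abundant in liver (ENSMUSG00000032359.14, GRCm39 chr9:89936205-89958148, plus strand). It was at 5138, 5396 and 5152 TMM-normalized counts in the healthy livers, 2892, 2544 and 2978 in untreated HCC, and 3885, 4455 and 4235 in miR-22-treated HCC. No liver of any group overlapped another group, and the treated livers lay between the other two groups. Ctsh fell in untreated HCC by 0.90 on the log2 scale (standard error 0.097), which is 1.86-fold lower (adjusted p of 6.32e-06 by edgeR's quasi-likelihood test). With miR-22 it was 1.49-fold higher than in untreated HCC (log2 fold change 0.58, standard error 0.096, adjusted p of 0.00141, same test), just under the fold threshold, and so was not called. It passed the threshold without untreated HCC replicate 2 or 4 or treated replicate 2, with log2 fold changes of 0.60, 0.63 and 0.63. Against healthy livers, treated livers differed by −0.32 (adjusted p of 0.0209, same test), again under the fold threshold.

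Ctsc encodes cathepsin C, also called dipeptidyl peptidase 1, which activates the serine proteases of granulocytes and cytotoxic lymphocytes (ENSMUSG00000030560.17, GRCm39 chr7:87927092-87960096, plus strand). Its values were 3875, 3341 and 3141 in healthy livers, 1898, 1927 and 2138 in untreated HCC and 3775, 3204 and 2340 in miR-22-treated HCC. Every untreated HCC liver was below all other livers, and treated and healthy livers overlapped. Ctsc fell by 0.80 on the log2 scale in untreated HCC against healthy livers (standard error 0.150, 1.74-fold lower, adjusted p of 0.000605 by edgeR's quasi-likelihood test). It rose 1.56-fold with miR-22 against untreated HCC (log2 fold change 0.64, standard error 0.150, adjusted p of 0.0088, same test). Treated replicate 2 was the highest of the treated livers, and without it the log2 fold change was 0.48 (adjusted p = 0.0367), under the fold threshold. Treated and healthy livers differed by −0.15 (adjusted p of 0.457, same test). Beside Ctsc, the neutrophil markers were higher in untreated HCC, and hepatocyte markers were lower. Of the 9 tested T and NK cell markers, Gzma was lower in untreated HCC (log2 fold change −1.82), Cd4 was higher (0.72), and Nkg7 was higher with miR-22 against untreated HCC (1.41). The part of these cells in the values of Ctsc was not tested.

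Ctss encodes cathepsin S, which trims the invariant chain in antigen-presenting cells (ENSMUSG00000038642.10, GRCm39 chr3:95433963-95463717, plus strand). It was at 720.8, 491.4 and 652.3 in healthy livers, 1387, 1333 and 1213 in untreated HCC, and 1267, 1257 and 1376 in miR-22-treated HCC. All HCC livers, treated or not, were above all healthy livers. The rise in untreated HCC was 2.11-fold (log2 fold change 1.08, standard error 0.123, adjusted p of 1.05e-05 by edgeR's quasi-likelihood test), and treated livers were 2.09-fold higher than healthy ones (log2 fold change 1.06, standard error 0.123, adjusted p of 3.69e-05, same test). The HCC groups differed by −0.01 (standard error 0.120, adjusted p of 0.96, same test), an estimate whose sign changed when single livers were left out.

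Ctsk encodes cathepsin K, the collagen-degrading protease of osteoclasts that fibroblasts also make (ENSMUSG00000028111.4, GRCm39 chr3:95406178-95416732, plus strand), and it lies next to Ctss on the chromosome. It was low, at 17.1, 31.8 and 20.2 in healthy livers, 84.5, 51.2 and 66.7 in untreated HCC and 84.3, 56.9 and 97.8 in miR-22-treated HCC. Again no healthy liver reached the lowest HCC liver, and the HCC groups overlapped. Ctsk was 2.93-fold higher in untreated HCC (log2 fold change 1.55, standard error 0.321, adjusted p of 0.00119 by edgeR's quasi-likelihood test) and 3.47-fold higher in treated HCC (1.80, standard error 0.322, adjusted p of 0.000961, same test) than in healthy livers. The summed level of the 10 stellate cell and fibroblast markers was also higher in both HCC groups than in healthy livers, but it was lower in treated than in untreated HCC, where Ctsk was not, with ranges of 7329 to 8675 (healthy), 20320 to 23450 (untreated HCC) and 15760 to 18700 (treated HCC). For Ctss the corresponding values are the macrophage sums with and without Spp1 and Cd14, given above, and the pan-leukocyte gene Ptprc at 445, 411 and 446 in healthy livers, 688, 699 and 702 in untreated HCC and 770, 690 and 642 in treated HCC. The part of these cells in the values of Ctss and Ctsk was not tested.

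Among the other cysteine cathepsins, Ctsl, Ctsf and Ctso passed the adjusted p in at least 1 comparison without passing the fold threshold. Ctsl, the endopeptidase cathepsin L, was at 4632, 4621 and 4515 in healthy livers, 5741, 4327 and 5656 in untreated HCC and 6540, 7587 and 6430 in treated HCC. The treated livers were above all others. They differed from untreated HCC by a log2 fold change of 0.39 (adjusted p = 0.0345) and from healthy livers by 0.58 (adjusted p of 0.00255 by edgeR's quasi-likelihood test). The second value was over the fold threshold without treated replicate 2 or 4, at 0.60 and 0.62, and with a filter of 10 counts in every library, at 0.61. Ctsf, cathepsin F, had a log2 fold change of −0.53 in untreated HCC against healthy livers (adjusted p of 0.00731, same test). It was over the fold threshold without healthy replicate 1 or 2 or untreated HCC replicate 4, at −0.60, −0.59 and −0.61. Ctso had values of −0.53 in that comparison (adjusted p = 0.00065) and 0.38 with miR-22 against untreated HCC (adjusted p of 0.0167, same test). Its exons overlap those of Tdo2 on the other strand, a hepatocyte gene that averaged 17630 counts per library against 1276 for Ctso and lay between 7752 and 10810 TMM-normalized counts in untreated HCC and between 19670 and 30240 in treated HCC. Because the libraries keep no strand, reads of the 2 genes in the overlap cannot be told apart and the values of Ctso are uncertain. The same holds for Ctsw, which averaged 20.6 counts beside 366 of the overlapping Fibp.

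Ctsb, the most abundant cathepsin by count, lay between 12960 and 13980 in healthy livers, 11990 and 13590 in untreated HCC and 13760 and 14740 in treated HCC. Ctsd, the main aspartic protease of lysosomes, was at 4372 ± 231, 4995 ± 427 and 5332 ± 390 (SD, n = 3) in the same order, and treated livers lay above healthy ones without overlap (log2 fold change 0.29, adjusted p of 0.043 by edgeR, under the fold threshold). Ctsa, a serine carboxypeptidase that also protects lysosomal galactosidase and sialidase, was at 2347 ± 15.5, 2434 ± 83.9 and 2430 ± 90.5. None of these 3 was called in any comparison, and Ctsd and Ctsa are among the members with a miR-22-3p seed match shown above. Summed over the 14 cysteine cathepsins, the level was 33030 ± 171 in healthy livers, 28810 ± 2180 in untreated HCC and 34890 ± 1570 in treated HCC (SD, n = 3). These sums did not overlap between the groups: untreated HCC livers, at 30190 or below, were under all healthy livers, and treated livers, at 33710 or above, were over them.

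Lamp2 encodes a LAMP protein needed for fusion of autophagosomes with lysosomes, with an isoform that takes proteins into lysosomes in chaperone-mediated autophagy (ENSMUSG00000016534.15, GRCm39 chrX:37488520-37545340, minus strand). It was at 12560, 13490 and 13590 in healthy livers, 8935, 8237 and 9018 in untreated HCC, and 12290, 13800 and 10670 in miR-22-treated HCC. All untreated HCC livers lay below all others, and treated and healthy livers overlapped. Lamp2 fell by 0.60 on the log2 scale in untreated HCC (standard error 0.115, 1.51-fold lower, adjusted p of 0.000693 by edgeR's quasi-likelihood test). This value sits at the fold threshold, and the call was lost without untreated HCC replicate 3 (−0.56), with upper-quartile factors (−0.55) and with a filter of 10 counts in every library (−0.55), all still under an adjusted p of 0.05. With miR-22, Lamp2 was 1.40-fold above untreated HCC (log2 fold change 0.49, standard error 0.115, adjusted p of 0.00922, same test), under the fold threshold. Lamp1, which has related roles, was at 14200, 14370 and 14330 in healthy livers, 13310, 10890 and 12580 in untreated HCC and 13910, 15220 and 14610 in treated HCC, and was not called. Counts of genes do not separate the isoforms of Lamp2.

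Laptm5 is expressed in blood cells, where it sorts antigen receptors for lysosomal degradation (ENSMUSG00000028581.17, GRCm39 chr4:130638161-130663452, plus strand). It was at 313.4, 238.4 and 256.9 in healthy livers, 484.6, 540.3 and 508.0 in untreated HCC and 518.2, 409.5 and 399.6 in miR-22-treated HCC. All HCC livers were above all healthy livers, and the HCC groups overlapped. Laptm5 rose 1.90-fold in untreated HCC (log2 fold change 0.92, standard error 0.134, adjusted p of 7.66e-05 by edgeR's quasi-likelihood test) and was 1.64-fold higher in treated HCC than in healthy livers (0.71, standard error 0.135, adjusted p of 0.0014, same test). The second call was lost without treated replicate 2, at 0.57. The leukocyte and macrophage values given for Ctss stand beside Laptm5 too, and their part in it was not tested.

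Laptm4b, which binds lysosomal amino acid transporters and is known to be raised in human liver cancer (ENSMUSG00000022257.4, GRCm39 chr15:34238174-34290624, plus strand), holds a miR-22-3p seed match. It was at 454.9, 415.6 and 425.3 in healthy livers, 731.9, 759.3 and 751.5 in untreated HCC and 508.2, 571.6 and 657.1 in treated HCC. The 3 groups did not overlap, and the treated livers lay between the others. Laptm4b rose 1.73-fold in untreated HCC (log2 fold change 0.79, standard error 0.104, adjusted p of 3.35e-05 by edgeR's quasi-likelihood test). With miR-22 the log2 fold change was −0.37 (standard error 0.102, adjusted p of 0.0211, same test), and treated livers differed from healthy ones by 0.42 (adjusted p = 0.00726), both under the fold threshold. Its paralog Laptm4a, at 3732 ± 155, 3768 ± 112 and 4260 ± 167 (SD, n = 3), was not called, and a processed pseudogene that overlaps Laptm4b averaged 8.11 counts.

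**Figure D3:**
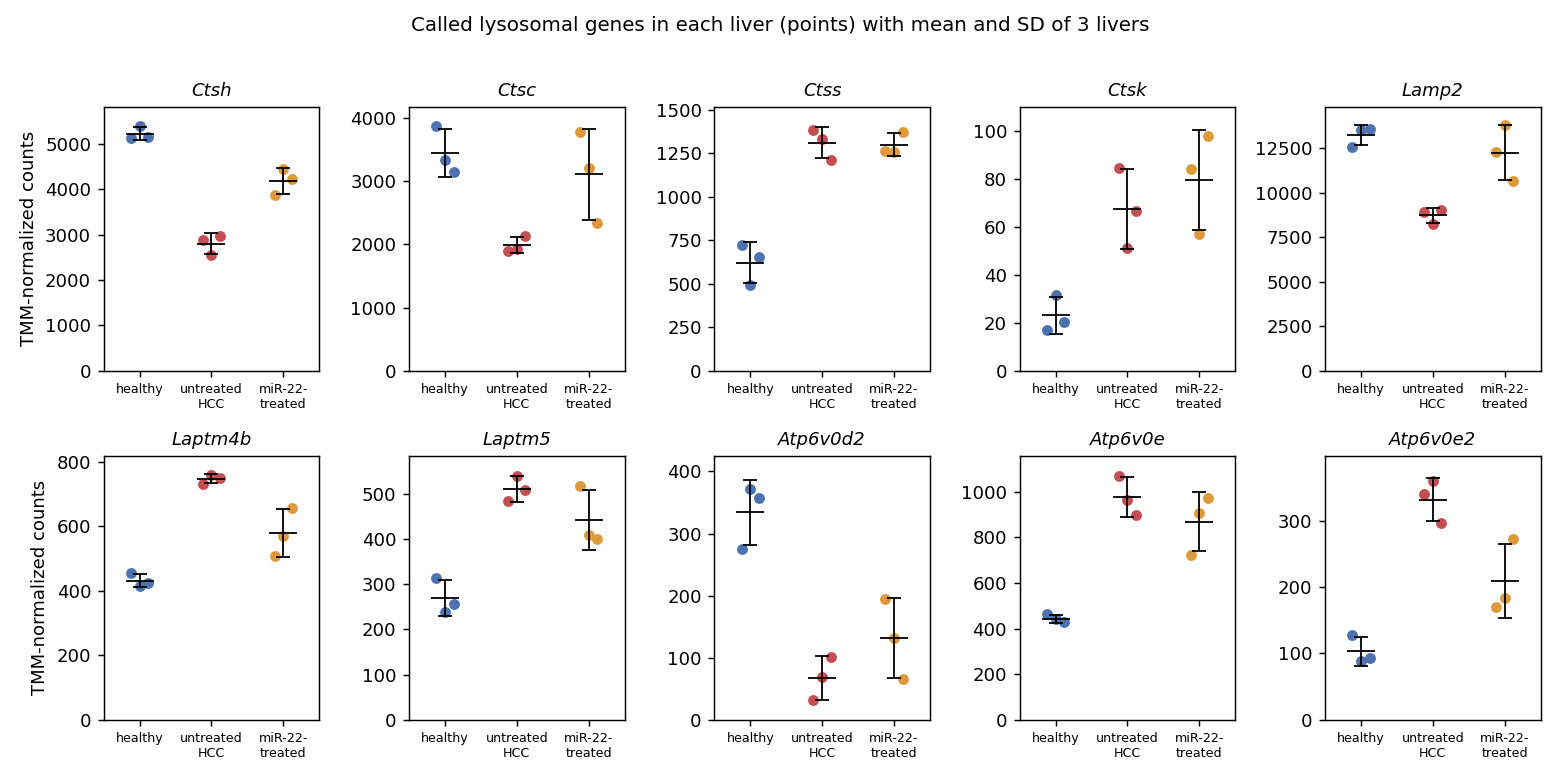
TMM-normalized counts (vertical axis, from 0) of the 10 called members in each liver (points), with the mean and SD of 3 livers (black lines), for healthy, untreated HCC and miR-22-treated HCC livers. For Ctsh and Laptm4b the treated livers lie between the other groups without overlap, and for Ctss, Ctsk and Laptm5 they overlap with untreated HCC.

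Within the V0 part of the proton pump, the small subunit e is encoded by Atp6v0e, which is made in all tissues, and Atp6v0e2. Atp6v0e (ENSMUSG00000015575.15, GRCm39 chr17:26882205-26918621, plus strand) was at 462.2, 441.3 and 427.4 in healthy livers, 1070, 965.2 and 898.7 in untreated HCC and 724.6, 908.1 and 973.6 in miR-22-treated HCC. All HCC livers were above all healthy livers, with overlap between the HCC groups. It rose 2.20-fold in untreated HCC (log2 fold change 1.14, standard error 0.116, adjusted p of 4.08e-06 by edgeR's quasi-likelihood test) and was 1.96-fold higher in treated HCC than in healthy livers (0.97, standard error 0.117, adjusted p of 4.97e-05, same test).

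Atp6v0e2 (ENSMUSG00000039347.7, GRCm39 chr6:48514504-48522309, plus strand) was at 128.1, 89.2 and 92.7 in healthy livers, 340.0, 359.7 and 296.4 in untreated HCC and 169.8, 184.3 and 273.2 in miR-22-treated HCC. The 3 groups did not overlap, with the treated livers in between. Atp6v0e2 rose 3.21-fold in untreated HCC (log2 fold change 1.68, standard error 0.200, adjusted p of 1.45e-05 by edgeR's quasi-likelihood test). With miR-22 it was 1.58-fold lower than in untreated HCC (−0.66, standard error 0.188, adjusted p of 0.0238, same test) and 2.03-fold higher than in healthy livers (1.02, standard error 0.204, adjusted p of 0.00194, same test). The fall with miR-22 rests on few livers: without untreated HCC replicate 2 or 3 its adjusted p was 0.0759 and 0.0921, and without treated replicate 2 or 3 it was 0.0816 and 0.0991, with log2 fold changes between −0.64 and −0.53.

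The d subunit links V1 and V0 and exists as the ubiquitous Atp6v0d1 and as Atp6v0d2, known from osteoclasts, kidney and macrophages. Atp6v0d2 (ENSMUSG00000028238.6, GRCm39 chr4:19876838-19922614, minus strand) was at 274.4, 371.6 and 357.1 in healthy livers, 31.8, 68.6 and 101.5 in untreated HCC and 195.3, 132.4 and 66.5 in miR-22-treated HCC. All HCC livers lay below all healthy livers, and the HCC groups overlapped. The fall in untreated HCC was 4.90-fold (log2 fold change −2.29, standard error 0.382, adjusted p of 0.000234 by edgeR's quasi-likelihood test), the largest change of any tested member in the 3 comparisons. Treated livers were 2.56-fold below healthy ones (−1.36, standard error 0.369, adjusted p of 0.0122, same test). Against untreated HCC the log2 fold change with miR-22 was 0.94 (standard error 0.391, adjusted p of 0.104, same test). With single livers left out, this log2 fold change ran from 0.52 to 1.37. It was 1.37 (adjusted p = 0.0337) without untreated HCC replicate 4 and 1.27 (adjusted p = 0.0174) without treated replicate 4. Without a filter on low counts it also passed (0.93, adjusted p = 3.06e-05), although the fold change was nearly the same and the livers of the HCC groups overlap. Atp6v0d1 was at 1469 ± 33.0, 1144 ± 83.7 and 1266 ± 21.0 (SD, n = 3), and its log2 fold change of −0.36 in untreated HCC against healthy livers (adjusted p = 0.00193) was under the fold threshold. The macrophage marker sums with and without Spp1 and Cd14 are given above, and the 6 Kupffer cell markers summed to 5433 to 7049 (healthy), 4446 to 5596 (untreated HCC) and 6278 to 6745 (treated HCC). Their part in its values was not tested.

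The 9 tested genes of the V1 part, among them Atp6v1a and Atp6v1b2 for the catalytic head, Atp6v1c1 and Atp6v1h, were called in no comparison by edgeR or by DESeq2. At an unadjusted p under 0.05, 3 of them passed in untreated HCC against healthy livers, 0 with miR-22 against untreated HCC and 3 in treated HCC against healthy livers. The share of all tested genes at that threshold was not computed. By the adjusted p alone 1, 0 and 1 of the 9 passed in the same order, against 56.2%, 24% and 36.5% of all tested genes. Their log2 fold changes ran from −0.12 to 0.35 in untreated HCC against healthy livers, from −0.11 to 0.17 with miR-22 against untreated HCC, and from 0.05 to 0.30 in treated HCC against healthy livers. Summed over the V1 genes the level was 8783 ± 93.7 in healthy livers, 9515 ± 474 in untreated HCC and 9746 ± 311 in treated HCC (SD, n = 3). The sums of all HCC livers, at 9171 or above, were over those of all healthy livers, at 8852 or below. Atp6v1c1 in untreated HCC against healthy livers was the single V1 gene with an adjusted p under 0.05 (0.0105, edgeR's quasi-likelihood test) in that comparison, with a log2 fold change of 0.35. It also passed in treated HCC against healthy livers, at 0.29 (adjusted p of 0.0399, same test). Among the V0 genes, Atp6v0c, the proton-carrying ring subunit, had a log2 fold change of 0.40 in untreated HCC (adjusted p of 0.00192, same test), under the fold threshold. The accessory genes Atp6ap1 and Atp6ap2 were not called either. Naa50 overlaps Atp6v1a, Eif2s1 and Pals1 overlap Atp6v1d, Nfkbil1 overlaps Atp6v1g2, Fdft1 overlaps Ctsb, Pltp overlaps Ctsa, Nelfcd overlaps Ctsz, Grtp1 overlaps Lamp1 (345 counts on average beside 13560) and 1810030O07Rik overlaps Atp6ap2 on the other strand. All of these are expressed in the livers, so these members are uncertain in the same way as Ctso.

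Between paralogs, the share of counts per kb within a family followed the same genes. Atp6v0d2 made 13.2% ± 1.70 of the d subunit counts per kb in healthy livers, 3.78% ± 1.85 in untreated HCC and 6.45% ± 3.07 in miR-22-treated HCC (SD, n = 3). No HCC liver of either group reached the healthy range of 11.3% to 14.6%. Atp6v0e2 made 8.15% ± 1.27, 11.5% ± 0.861 and 8.38% ± 1.25 of subunit e in the same order. Its treated livers overlapped the healthy ones and lay below all untreated HCC livers. Lamp2 made 57.2% ± 0.914, 50.8% ± 1.5 and 54.7% ± 2.94 of Lamp1 and Lamp2 together. Of the 3 LAPTM genes, Laptm4b made 7.14% ± 0.515, 11.2% ± 0.411 and 8.12% ± 1.12, and Laptm5 4.52% ± 0.767, 7.77% ± 0.553 and 6.29% ± 1.02. For the a subunit, which decides where the pump is placed, Tcirg1 (the a3 gene, outside the symbol pattern and added after its values were seen) made 41.3% ± 2.00, 38.5% ± 1.09 and 44.7% ± 2.53, beside Atp6v0a1 and Atp6v0a2. Atp6v0a2, which holds a miR-22-3p seed match, made 22.6% ± 0.628, 26.6% ± 1.07 and 21.7% ± 0.768 of these 3. Its untreated HCC livers were at 1246, 1164 and 1225 TMM-normalized counts, above all of the treated livers at 1006, 1021 and 1078. The log2 fold change with miR-22 was −0.23 (standard error 0.076, adjusted p of 0.0469 by edgeR's quasi-likelihood test), under the fold threshold. The remaining seed match member, Atp6v0c, was at 792.4 ± 44.8 in untreated and 753.8 ± 56.5 in treated HCC (SD, n = 3). In all, 2 of the 5 members with a match passed the adjusted p with a lower level under miR-22 and none was called. Over all tested genes with a 3′ UTR, 14.6% of the 2287 with a match and 11.2% of the 11272 without one passed in that way, and nothing about targeting can be read from 5 members.

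**Figure D4:**
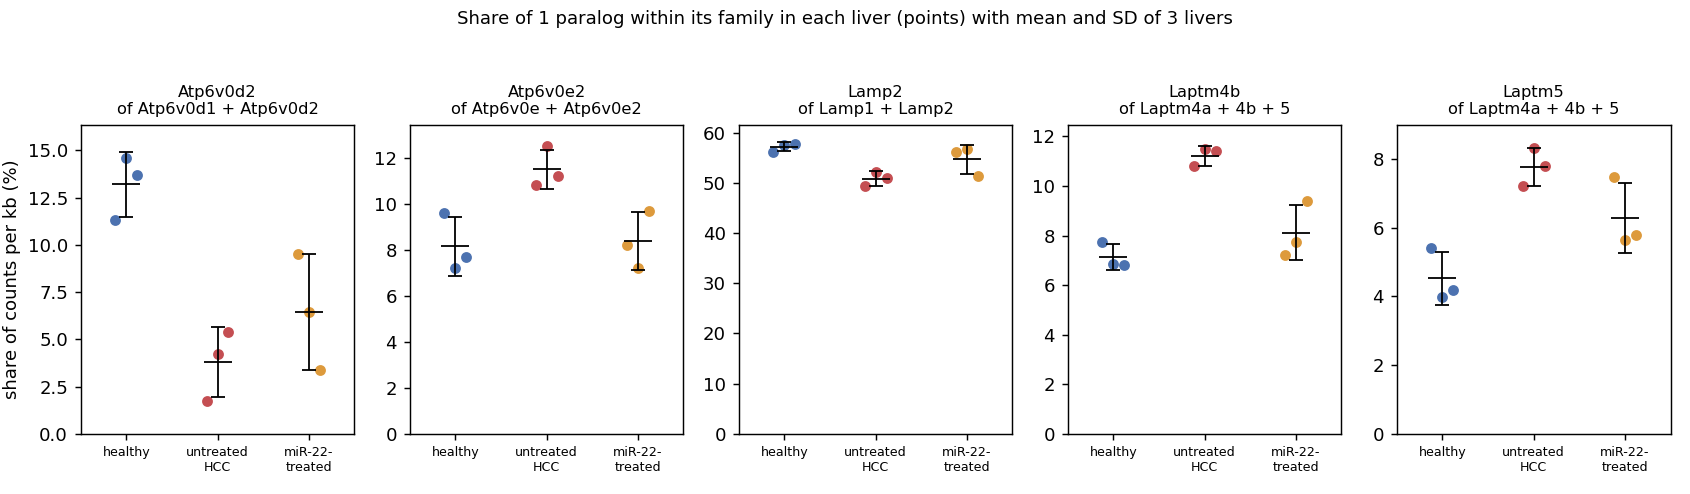
Share of 1 paralog in the counts per kb of its family (vertical axis, %, from 0) in each liver (points) with the mean and SD of 3 livers, for Atp6v0d2, Atp6v0e2, Lamp2, Laptm4b and Laptm5 in the 3 groups. Atp6v0d2 falls from a mean of 13.2% in healthy livers to 3.78% in untreated HCC, whereas Atp6v0e2 goes from 8.15% to 11.5%.

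The comparison of miR-22-treated with untreated HCC shows which of these genes differed between livers given the tumors with and without the miRNA. The study reports a lower tumor load after this treatment. The part of that difference in the values of these genes was not tested. Ctsc rose and Atp6v0e2 fell, and the other 35 tested members were not called. These 2 are 5.41% of the members, against 13.8% of all tested genes, of which 8.32% were called higher and 5.47% lower. The livers did not overlap for 14 members (37.8%), against 39.3% of all tested genes. The median size of the log2 fold change was 0.14 over the members and 0.28 over all tested genes. By the adjusted p alone 8 of the 37 members passed, against 24% of all tested genes, 5 higher (Ctsc, Ctsh, Lamp2, Ctsl and Ctso) and 3 lower (Atp6v0e2, Laptm4b and Atp6v0a2), with values given above. Leaving out single livers moved the count of called members between 1 and 4: it was 1 without untreated HCC replicate 3 or treated replicate 2 or 3, and 4 without untreated HCC replicate 4. Both genes called here were called in the other direction in untreated HCC against healthy livers. The comparisons share the untreated HCC livers, so this reversal is a description of the values and not a second line of evidence.

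Between miR-22-treated HCC and healthy livers, 6 members were called. Ctsk, Ctss, Atp6v0e2, Atp6v0e and Laptm5 were higher and Atp6v0d2 was lower in treated HCC. They are 16.2% of the tested members, against 24% of all tested genes, with 16.9% called higher and 7.05% lower. Livers did not overlap for 21 members (56.8%), against 48.8% of all tested genes, and 12 of 37 passed the adjusted p alone, against 36.5%. Ctsc, Ctsh, Lamp2 and Laptm4b, called in untreated HCC against the same healthy livers, were not called here, with log2 fold changes of −0.15, −0.32, −0.11 and 0.42. Of the markers, 8 of 15 macrophage, 5 of 5 tested neutrophil and 5 of 8 dendritic ones were called higher here. So were 6 of 10 stellate and 4 of 7 cholangiocyte markers. Lower were 5 of 10 hepatocyte markers and 1 macrophage marker. Endothelial markers had 1 higher and 1 lower, T and NK markers 1 higher, and the other types none.

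Many lysosomal genes are under the factor TFEB and its relatives, which bind promoter elements with the core CACGTG. Promoters from RefSeq (GRCm38.p6, 250 bases before to 50 after the start) were found for 38 of the 49 members, 26 of them tested. CACGTG, which reads the same on both strands, was in 9 of these 26 promoters (34.6%), against 11.3% of the tested genes and 8.09% of all promoters in the table. The longer GTCACGTG, searched on both strands, contained in the CACGTG matches and chosen after the promoters were seen, was in 5 of 26 (19.2%), against 4.46% and 2.55%. GTCACGTG followed by AC was in none of the members, against 0.748% of the tested genes. Of the 10 members called in a comparison 7 had a promoter in the table, and 1 of them, Atp6v0e, held CACGTG. Of the 27 members called in none 19 had a promoter, and 8 held it (Atp6v0b, Atp6v0d1, Atp6v1a, Ctsa, Ctsd, Ctsf, Ctsl and Lamp1). Promoters of a pair of uncalled members with repeated matches and of a pair of called cathepsins without one are shown for contrast, 5′ to 3′ with CACGTG in capitals. They are Ctsd (chr7:142387778-142388077, minus strand), Lamp1 (chr8:13158911-13159210, plus strand), Ctss (chr3:95526536-95526835, plus strand) and Ctsc (chr7:88277835-88278134, plus strand).
Ctsd: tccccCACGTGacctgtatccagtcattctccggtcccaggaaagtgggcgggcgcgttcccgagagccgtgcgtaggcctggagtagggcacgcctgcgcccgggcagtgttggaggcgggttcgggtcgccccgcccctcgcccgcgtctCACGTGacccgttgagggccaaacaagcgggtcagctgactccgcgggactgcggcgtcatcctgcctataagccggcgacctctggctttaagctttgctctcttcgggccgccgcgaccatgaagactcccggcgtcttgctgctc
Lamp1: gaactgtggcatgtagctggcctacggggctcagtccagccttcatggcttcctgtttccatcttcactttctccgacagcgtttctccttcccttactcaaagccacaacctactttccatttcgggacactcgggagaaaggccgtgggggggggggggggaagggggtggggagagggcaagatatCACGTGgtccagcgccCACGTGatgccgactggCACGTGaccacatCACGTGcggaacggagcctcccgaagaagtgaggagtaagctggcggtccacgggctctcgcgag
Ctss: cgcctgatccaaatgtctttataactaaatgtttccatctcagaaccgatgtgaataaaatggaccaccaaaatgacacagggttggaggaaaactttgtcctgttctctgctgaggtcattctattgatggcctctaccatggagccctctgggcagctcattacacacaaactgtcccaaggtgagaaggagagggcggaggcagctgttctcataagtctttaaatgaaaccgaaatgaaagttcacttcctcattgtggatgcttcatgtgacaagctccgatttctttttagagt
Ctsc: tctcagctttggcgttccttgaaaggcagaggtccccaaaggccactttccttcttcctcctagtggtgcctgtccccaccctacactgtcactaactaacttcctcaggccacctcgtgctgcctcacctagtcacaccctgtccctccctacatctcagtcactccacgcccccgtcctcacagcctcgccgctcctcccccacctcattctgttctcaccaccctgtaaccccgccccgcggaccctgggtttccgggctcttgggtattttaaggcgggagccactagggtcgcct

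A match describes the letters in this window and is not a shown binding site, and a window without a match says nothing about the factor. The transcripts of the factors themselves were looked up after the promoters. Tfeb was at 204.7 ± 20.8, 170.8 ± 32.1 and 179.5 ± 38.6 in healthy, untreated and treated livers, and Tfe3 at 509.8 ± 31.9, 687.4 ± 45.8 and 558.3 ± 11.5 (SD, n = 3). Neither was called in any comparison, and Tfe3 passed the adjusted p alone with log2 fold changes of 0.43 in untreated HCC against healthy livers (adjusted p = 0.00145, edgeR) and −0.30 with miR-22 against untreated HCC (adjusted p = 0.0315, edgeR).

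Other genes of the lysosome, and genes related to it, were followed through 9 lists with 185 genes, 173 of them tested. In untreated HCC against healthy livers 57 of them (32.9%) were called, 24 higher and 33 lower, against 40.8% of all tested genes. The list of membrane proteins and channels held the largest rises, those of the tetraspanins Tspan8 and Cd63, by 6.93 and 4.40 on the log2 scale. On the same list Npc1, the cholesterol exporter, and Clcn7, the chloride-proton exchanger, fell by 1.14 and 1.03. Of the 28 tested genes of that list 4 rose and 7 fell. Among the 28 glycosidases and sulfatases 6 rose, with Arsa and Hexa at log2 fold changes of 1.83 and 1.09, and 3 fell, with Hyal1 at −1.15. Of 23 sorting genes 5 rose and 1 fell, and the receptors Sort1 and Igf2r, which carry enzymes to lysosomes, had log2 fold changes of 2.08 and 1.06. Of the 6 tested genes on a list of cystatins and related proteins, the cathepsin inhibitor Cstb, which acts inside cells, rose by 2.04. From this list 4 fell, among them the plasma proteins Fetub and Kng1 at −2.12 and −1.22. In the group of MiT/TFE factors and lysosomal mTORC1 control, 1 of 19 rose, Rragd at 3.89, and 5 fell, with the folliculin partners Fnip2 and Fnip1 at −1.52 and −1.24. Of 29 autophagy genes 1 rose and 9 fell, with Atg3 at −1.12. Of the other proteases and hydrolases 4 rose and 2 fell among 16, of the lipid enzymes 1 rose and 2 fell among 12, and of the 12 V-ATPase assembly genes Ncoa7 alone rose, by 1.58. Each named value had an adjusted p below 0.05 in edgeR's quasi-likelihood test.

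With miR-22 against untreated HCC, 16 of these 173 genes (9.25%) were called, 13 higher and 3 lower, against 13.8% of all tested genes. Fnip2, Fnip1 and Flcn rose by 1.11, 0.97 and 1.07 on the log2 scale, Atg14 by 1.08, Npc1 by 0.72, and Fetub and Kng1 by 1.21 and 0.87. The 3 that fell were Tspan8 at −1.12, Sort1 at −0.83 and Igf2r at −0.65. The call for Sort1 was lost without untreated HCC replicate 3, at −0.58, and the number of genes that fell was 5 without untreated HCC or treated replicate 4. Of the lipid enzymes 2 and of the V-ATPase assembly genes 1 passed the adjusted p without the fold threshold. In treated HCC against healthy livers 23 (13.3%) were called, 20 higher and 3 lower, against 24% of all tested genes, 16.9% higher and 7.05% lower. Of these, Tspan8, Cd63, Rragd and Cstb remained above the healthy livers by 5.81, 3.87, 3.32 and 1.61. The number that was lower was 5 without healthy replicate 1 or treated replicate 2 or 3, and 7 without healthy replicate 3.

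The 12 members that were not tested are mostly paralogs known from other tissues. Atp6v0a4, the a4 subunit of kidney, had 37 raw counts in all libraries together, 24 of them in untreated HCC replicate 3 and 9 in treated replicate 4. It averaged 4.11 counts beside 364 of D630045J12Rik, whose exons overlap it on the same strand, so its counts are uncertain. Ctsj, a placental cathepsin, had 16 counts, of which the 3 untreated HCC livers held 3, 5 and 4 and the healthy livers none. Atp6v1c2 had 7 counts, Atp6v1b1 6, Ctsg 2, and Atp6v1g3 and Lamp3 1 each. Atp6v1e2, Ctsm, Ctsq, Ctsr and Lamp5 were at 0 in all 9 libraries, which allows up to 3 counts per library. Apart from Atp6v0a4, which was called in untreated HCC against healthy livers when no filter on low counts was used, with its counts mostly in 1 liver, differences in these genes were not detectable at this depth.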

How the data were processed

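Bulk RNA of 9 livers was analysed from counts. Per the labels and methods, the authors checked reads with FastQC 0.11.7, ran Salmon against GRCm39 on paired reads of non-directional libraries, imported gene totals with tximport and tested with DESeq2 1.18. They deposited whole-number counts per gene without normalization, and these counts were used for every result. A deposited table of normalized values was not used. Salmon splits reads of similar paralogs by estimation.

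Counts were scaled by TMM and filtered with filterByExpr in edgeR 4.0.16 (R 4.3.3), and 3 groups were fitted together without covariates. Genes were called by the two-sided quasi-likelihood F test at a Benjamini-Hochberg adjusted p under 0.05 over all tested genes and a fold over 1.5, the thresholds of the study. Levels per kb divide by the canonical GENCODE vM39 transcript. Figures were drawn with matplotlib 3.10.9. No blank gene name was present. Between livers of a group, chi-square divided by its degrees of freedom lay between 6.61 and 31.3, so none was a duplicate.

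Values in every liver are given for called members whose groups do not overlap. Others are named where they share a subunit or protein type with those, and Ctsl, Lamp1 and Atp6v0a2 got values in every liver after these were seen. From each list of related genes up to 4 called genes with the smallest p are named. Members, lists and markers (macrophage, Kupffer, neutrophil, mast, T and NK, B and plasma, dendritic, endothelial, stellate, cholangiocyte, hepatocyte) were chosen with earlier results of these data known. The alternatives were DESeq2 1.42.0, other normalizations and filters, a fit of 2 groups, a replicate block, no fold threshold and each liver left out. Counts of 15371 genes were also simulated with 200 changed and the same spread set for every gene, which differs from the livers. On these, edgeR called 99 of 103 genes with a 4-fold change, 62 of 97 with a 2-fold change and 4 others.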

Additional observations from a re-analysis of the deposited data

How the results depend on the processing

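With no fold threshold, 16 members were called in untreated HCC against healthy livers (9 higher, 7 lower), 8 with miR-22 against untreated HCC (5 higher, 3 lower) and 12 in treated HCC against healthy livers (10 higher, 2 lower), of 37 members each, against 56.2%, 24% and 36.5% of all tested genes. For the genes of the 9 lists these counts were 106 (41 higher, 65 lower), 48 (37 higher, 11 lower) and 65 (36 higher, 29 lower). With each liver left out once there were 9 to 11 called members in the first comparison (6 higher each time, 3 to 5 lower), 1 to 4 in the second (1 to 3 higher, 0 to 1 lower) and 6 to 7 in the third (5 to 6 higher, 1 lower each time), and 2 to 5 list genes lower in the second and 3 to 7 lower in the third. Without a filter on low counts, 2 members were higher with miR-22. With DESeq2 size factors or the DESeq2 Wald test, 5 list genes were lower in treated HCC than in healthy livers. The estimate of −0.01 for Ctss between the HCC groups ran from −0.064 to 0.031 with 1 liver left out, above 0 without untreated replicate 2 or treated replicate 2 or 3, and that of −0.15 for Ctsc in treated HCC against healthy livers ran from −0.329 to 0.016, above 0 without treated replicate 4. The cause of these moves was not tested.

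The replicate numbers did not pair the livers: deviations of same-numbered untreated and treated HCC livers correlated at −0.121, −0.131 and −0.235 over genes, lower than with any other number. With the replicate number as a block, no member was called lower in treated HCC against healthy livers (Atp6v0d2 at −1.47, adjusted p = 0.0613 in edgeR's quasi-likelihood test), Ctsf was called lower in untreated HCC (−0.62, adjusted p = 0.0135), and no member's call changed between the HCC groups. Over all genes the block moved the calls from 6417 to 5863, from 2167 to 1745 and from 3772 to 3044 in the 3 comparisons. Without a filter, Atp6v0a4 was also called in untreated HCC against healthy livers, on counts held mostly by 1 liver. The 68 results of members that passed no adjusted p, other than those discussed here, were called in 0 of 881 values over the alternatives. No normalization moved the median log2 fold change of all genes by more than 0.05. With 3 livers a group, changes of 2-fold and less may be missed. In the simulation, which set the same spread for every gene and changed few genes, 2-fold changes were found incompletely.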
